A study of Mus musculus with 6 samples.

Results

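The genes described here carry and shape the Nodal signal that sets left apart from right in the mouse embryo. They are Nodal, Dand5, Cfc1, Lefty1, Lefty2, Foxh1 and Acvr2b, chosen by name, and they were read from the probe sets that the platform annotation gives 1 of these symbols: 12 of the 45101 probe sets and 7 of the 18193 genes named on the array. The study sorted cells from mouse embryos at embryonic day 8.5, with a median of 6 somites, that were heterozygous for Noto-GFP, a green fluorescent reporter of the homeobox gene Noto, which is active in the node and early notochord. The 3 GFP-positive arrays and the 3 GFP-negative arrays came from 3 pools of embryos, each pool giving 1 array of either kind. Both groups therefore carried the reporter allele, on a mixed 129S3;ICR background and in embryos of both sexes. Per the labels, the tissue behind the boundary of the first and second somites was pooled from 23, 39 and 52 embryos and dissociated in 1% trypsin, and about 2600, 4300 and 6600 GFP-positive cells were sorted. The labels do not divide the tissue into left and right, so the arrays hold no comparison of the body's sides.

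Nodal is a secreted ligand of the TGF-beta family. It binds activin receptors (type II receptors such as Acvr2b with a type I receptor) together with a co-receptor of the EGF-CFC family such as Cfc1, and its signal reaches DNA through Smad2, Smad3 and Smad4 with the forkhead factor Foxh1. Lefty1 and Lefty2 are secreted inhibitors that are themselves switched on by the pathway, Lefty1 chiefly along the midline and Lefty2 in the left lateral plate. Dand5 is a secreted antagonist that binds Nodal at the edge of the node, where flow driven by cilia lowers it on the left.

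Of these genes, Nodal, its antagonist Dand5 and the receptor Acvr2b were higher in GFP-positive cells. The co-receptor Cfc1 was higher on every GFP-positive array but missed the threshold, and passed with the embryo pool as a block. Lefty1 was higher in pools 1 and 2 and equal in pool 3, while Lefty2 and Foxh1 were dim in both groups and did not pass. In the limma fit over all genes (log2 of intensity + 32, group as the only term, Benjamini-Hochberg adjusted p under 0.05), 3 of the 7 genes were higher and 0 lower. Over the 12628 genes tested, 2.6% were higher and 1.41% lower. Dand5 entered that test through its GFP-positive arrays only, since a probe set was kept if 3 arrays reached their own 40th percentile. With no filter the same 3 genes passed, where 1.75% of 18193 genes passed in either direction. With the pool as a block, 4 of the 7 were higher and 0 lower, against 8.4% and 6.76% of all genes. The count of 3 depended on single libraries and, for Dand5, on the filter. It fell to 1, Nodal, without GFP-positive array 1, 2 or 3 (where 1.8%, 0.532% and 0.444% of all genes were higher), without GFP-negative array 2 (0.506%) and without pool 3 (0.215%). Without pool 2 it was 0, and 0.0258% of all genes, or 3, were higher. Without GFP-negative array 3 it was 3, with Lefty1 in place of Acvr2b (0.886%). In the fits without a GFP-positive array or a whole pool the filter did not keep Dand5, so it was not tested there. With no filter Dand5 passed without GFP-positive array 1 (adjusted p = 0.017 in limma), but not without array 2 (0.123) or 3 (0.086).

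Promoter sequences of the 3 genes that passed show how different these regions are. The RefSeq promoter table (GRCm38.p6) held 1 entry for each of these 3 and for Cfc1, of 300 bases from 250 before to 50 after an annotated start. For Nodal and Cfc1 that start is the outer end of the RefSeq gene, but for Acvr2b it lies 595 bases and for Dand5 9442 bases inside the gene, so other starts of these genes are not shown. They are printed 5′ to 3′ on the strand of the gene with every CpG dinucleotide in capitals. The regions are chr10:61417722-61418021 (plus strand) for Nodal, chr8:84822774-84823073 (minus strand) for Dand5 and chr9:119401928-119402227 (plus strand) for Acvr2b.
Nodal: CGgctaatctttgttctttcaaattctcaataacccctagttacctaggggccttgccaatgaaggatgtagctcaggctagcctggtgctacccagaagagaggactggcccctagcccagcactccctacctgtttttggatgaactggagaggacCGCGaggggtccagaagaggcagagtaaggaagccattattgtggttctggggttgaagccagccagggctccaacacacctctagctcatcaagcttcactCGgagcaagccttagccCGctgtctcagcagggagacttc
Dand5: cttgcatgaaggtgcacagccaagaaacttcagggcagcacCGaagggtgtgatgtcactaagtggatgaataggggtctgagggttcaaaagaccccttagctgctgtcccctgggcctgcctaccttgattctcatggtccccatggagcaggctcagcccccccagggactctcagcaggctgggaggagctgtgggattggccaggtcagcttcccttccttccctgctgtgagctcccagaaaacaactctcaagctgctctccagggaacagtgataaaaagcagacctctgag
Acvr2b: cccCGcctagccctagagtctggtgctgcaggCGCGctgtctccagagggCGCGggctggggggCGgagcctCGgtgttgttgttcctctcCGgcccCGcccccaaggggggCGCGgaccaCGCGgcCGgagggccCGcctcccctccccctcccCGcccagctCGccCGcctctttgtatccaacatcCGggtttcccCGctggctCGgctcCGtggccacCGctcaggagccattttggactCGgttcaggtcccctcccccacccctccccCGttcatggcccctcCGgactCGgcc
Acvr2b had 27 CpG dinucleotides and 73.3% G or C, while Nodal had 5 and 54.0%, and Dand5 had 1 and 56.3%. The median over 32851 promoters was 7 CpG dinucleotides and 52.7% G or C. Fewer than 27 CpG dinucleotides stood in 84.5% of promoters, and fewer than 1 in 5.43%. Cfc1, whose promoter is not printed, had 2 CpG dinucleotides and 49.0% G or C. A search on both strands for TGTNNATT, the core that FOXH1 is known to bind, found 0 matches in the 4 promoters and at least 1 in 12.2% of all. For TGGGAA, the core of RBPJ, the factor of the Notch pathway, 0 of the 4 and 25.6% of all promoters held a match. The absence of these letters concerns this window alone.

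Nodal, the ligand, was read by a bright and a dim probe set. The bright one (1422058_at) had intensities of 753, 558 and 649 on the GFP-positive arrays of pools 1, 2 and 3, against 40.9, 36.8 and 53.1 on the GFP-negative arrays. Every GFP-positive array lay at or above the 90.7th percentile of its array, and the GFP-negative arrays lay between the 57.9th and 62.6th. Nodal averaged 653 ± 97.7 in GFP-positive and 43.6 ± 8.51 in GFP-negative cells (SD, n = 3 each), a ratio of means of 15.0, with ratios of 18.4, 15.2 and 12.2 within the pools. On the log2 scale Nodal rose by 3.18 ± 0.21 (SE, adjusted p = 0.000354 in limma), and it ranked 9th from the highest of 12628 fold changes. Of the fits that left out 1 array or pool, the one without pool 2 lost the call (3.21, adjusted p = 0.0527). Because whole sorted populations were measured, fewer cells of a type and less RNA per cell cannot be told apart. The dim probe set of Nodal (1422057_at) had 26.0, 42.5 and 37.0 on GFP-positive arrays, against 0.474, 12.0 and 5.28 on GFP-negative arrays, which were all under the 40th percentile. It moved the same way in all 3 pools, with a log2 fold change of 0.83 ± 0.17, and missed the threshold over probe sets (adjusted p = 0.0562); with pools blocked its adjusted p was 0.0165. Like Dand5, it was kept through the GFP-positive arrays only, and with no filter its adjusted p was 0.101, or 0.0404 with the block.

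**Figure D1:**
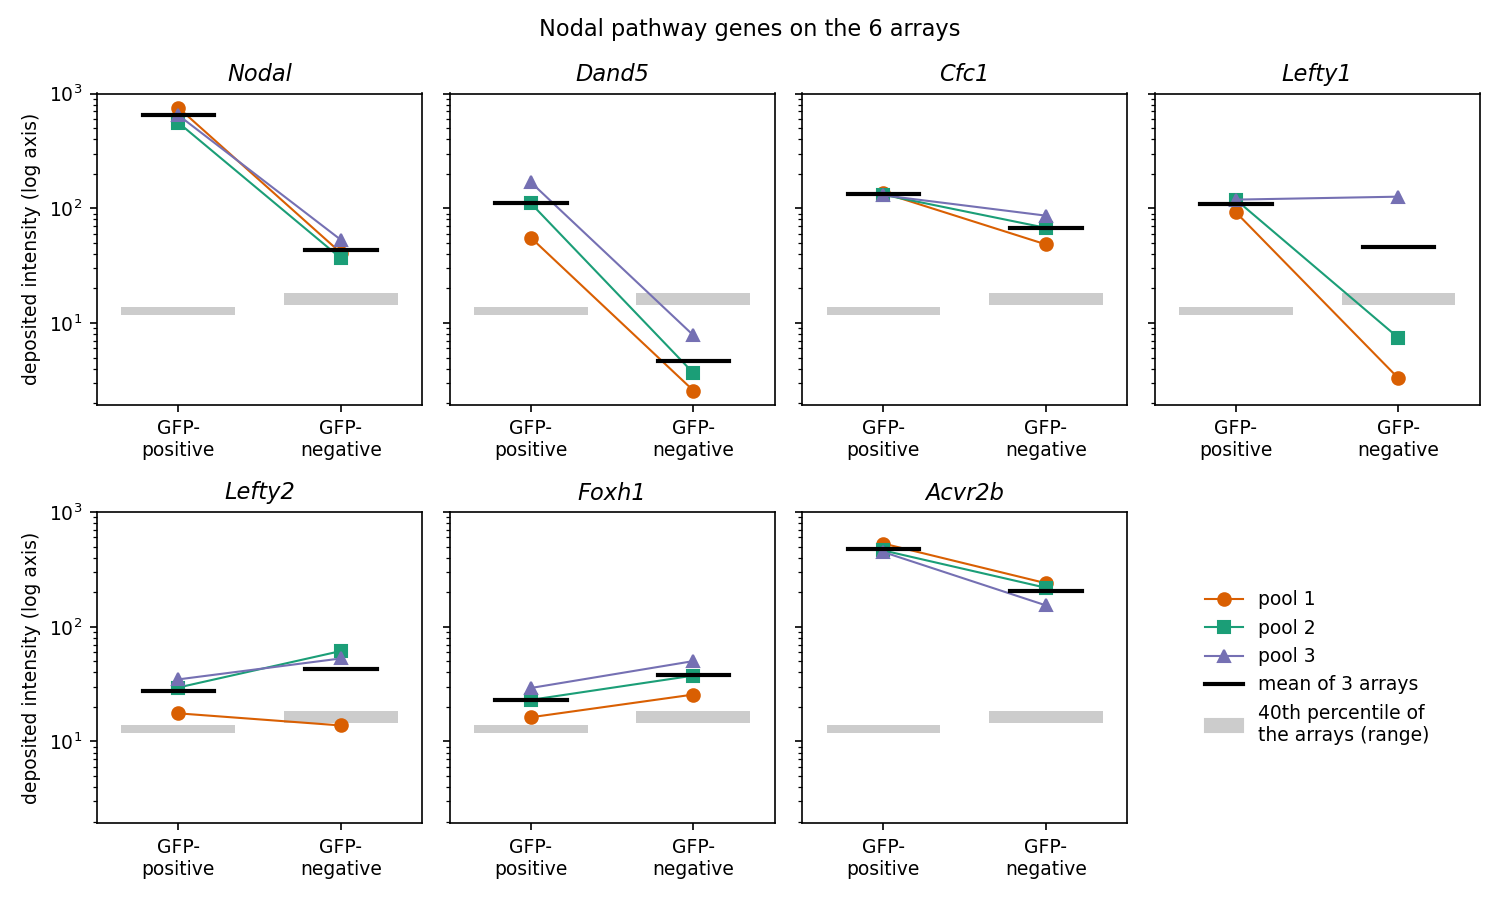
Deposited intensity (log axis) of the probe set that stands for each of the 7 genes by sorted group, 3 arrays each; lines join the arrays of 1 pool, black bars are means of 3 arrays and grey bands span the 40th percentiles of the arrays. Nodal, Dand5, Cfc1 and Acvr2b separate the groups in all 3 pools, whereas Lefty1 on GFP-negative array 3 (126) is as bright as on the GFP-positive arrays.

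Dand5, the antagonist of Nodal at the node, was bright only in GFP-positive cells. Its 1 probe set had 55.4, 110 and 168 on GFP-positive arrays, against 2.58, 3.66 and 7.81 on GFP-negative arrays. The GFP-negative values lay between the 14.5th and 22.9th percentile of their arrays, where a value may be background alone, so the ratios within the pools (21.5, 30.2 and 21.6) rest on a dim denominator. The groups did not overlap, and the GFP-positive arrays differed among themselves by more than those of Nodal did, with the lowest in pool 1. Dand5 averaged 111 ± 56.5 in GFP-positive and 4.68 ± 2.76 in GFP-negative cells (SD, n = 3 each), and rose by 1.89 ± 0.29 on the log2 scale (SE, adjusted p = 0.013 in limma). With an offset of 16 in place of 32 the value was 2.53 and with 64 it was 1.30, both past the threshold. With no filter, its adjusted p was 0.0258. Without GFP-negative array 2 the value was 1.87 and did not pass (adjusted p = 0.0848). The filter did not keep Dand5 once any 1 GFP-positive array was left out; with no filter, it then passed without array 1 (2.21, adjusted p = 0.017) and not without array 2 (1.85, adjusted p = 0.123) or 3 (1.61, adjusted p = 0.086).

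Acvr2b, a type II receptor of the activin family that Nodal uses, was higher in GFP-positive cells in all 3 pools. Its brightest probe set (1419140_at) had 531, 462 and 448 on GFP-positive arrays, against 240, 219 and 154 on GFP-negative arrays. The groups did not overlap, and the ratios within the pools were 2.22, 2.11 and 2.92. Acvr2b rose by 1.13 ± 0.23 on the log2 scale (SE, adjusted p = 0.0333 in limma). This call was near the threshold and was lost without any 1 of the GFP-positive arrays, without GFP-negative array 2 or 3, and without pool 2 or 3, with values between 0.97 and 1.21 in those fits; it held without GFP-negative array 1 (1.25) and without pool 1 (1.17). A second probe set (1439856_at) had 137, 273 and 191, against 83.5, 117 and 138. It was higher in all 3 pools, but its groups overlapped and it did not pass (log2 fold change 0.66 ± 0.28, adjusted p = 0.246). The third (1440525_at) lay between 1.59 and 4.53 on all 6 arrays, was the 1 member probe set that the filter removed, and was not tested. With no filter the brightest probe set had an adjusted p of 0.0432 over genes and 0.0715 over probe sets in limma. The other receptors of the pathway are described below with the remaining genes.

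Cfc1, the EGF-CFC co-receptor that carries the Nodal signal in left-right patterning, had nearly equal intensities on the GFP-positive arrays. They were 136, 131 and 130 in pools 1, 2 and 3, against 48.4, 67.5 and 86.2 on the GFP-negative arrays. The groups did not overlap, and the spread lay on the GFP-negative side, where the pools' ratios were 2.81, 1.94 and 1.50. The log2 fold change was 0.74 ± 0.21 (SE, 95% interval 0.26 to 1.23, adjusted p = 0.093 in limma). With the pool as a block Cfc1 rose by 0.74 ± 0.18 (adjusted p = 0.0321), and without pool 1 by 0.58 ± 0.17 (adjusted p = 0.0253). It also passed where the probe sets of each gene were averaged (adjusted p = 0.0495), though its own 1 probe set was unchanged by this. With no filter it did not pass (adjusted p = 0.131). Of 9 fits that left out 1 array or pool, it passed in 1, that without pool 1, where 19.5% of all genes were higher. In the rest its adjusted p reached 0.78.

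Lefty1, the midline inhibitor of Nodal, divided the GFP-negative arrays. It had 92.0, 119 and 119 on GFP-positive arrays, against 3.29, 7.41 and 126 on GFP-negative arrays. GFP-negative arrays 1 and 2 lay at the 16.9th and 27.0th percentile, and GFP-negative array 3 at the 75.5th, level with the GFP-positive arrays (71.4th to 75.3rd). Within pools the log2 differences were 1.81, 1.93 and -0.07. The fit gave 1.23 ± 0.51 (SE, 95% interval 0.06 to 2.39, adjusted p = 0.21 in limma), and adjusted p = 0.052 with pool as a block. Without GFP-negative array 3 the value was 1.92 ± 0.21 and passed (adjusted p = 0.0114), but that array had been seen to stand apart. Without the whole of pool 3, and with no filter, the value was 1.87 and did not pass (adjusted p = 0.236). It passed without pool 1 when pools were blocked (0.93, adjusted p = 0.0039). That fit held pools 2 and 3 alone, whose differences of 1.93 and -0.07 did not share a sign, and 43.7% of all genes passed in it. The 7 tested node and notochord markers summed to 434.6, 862.3 and 817 on the GFP-negative arrays of pools 1, 2 and 3. Within that list Shh had 47.0, 348 and 418 and Chrd, a secreted BMP antagonist, 7.25, 20.1 and 42.3. Both, and Foxa1 (26.1, 28.5 and 30.5), were highest on the array with bright Lefty1. Slit2, a secreted guidance cue, had 215, 225 and 146 and Krt19 41.9, 163 and 114, both highest on GFP-negative array 2. Foxa2 (30.6, 27.3 and 25.6) and Bicc1 (66.3, 50.0 and 41.4) were lowest on GFP-negative array 3. The 6 tested markers of neural plate and floor plate summed to 1190, 820 and 633 on the same arrays, and the 8 of endothelium and blood to 13240, 19090 and 27950. The part of any of these cells in the Lefty1 value of GFP-negative array 3 was not tested.

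Lefty2, the inhibitor of the left lateral plate, was dim in both groups and moved differently between pools. It had 17.6, 29.5 and 34.8 on GFP-positive arrays, against 13.8, 61.4 and 52.9 on GFP-negative arrays. In pools 2 and 3 the GFP-negative arrays were brighter, by ratios of 2.08 and 1.52, and in pool 1 the GFP-positive array was, by 1.28, so the groups overlapped. The log2 fold change was -0.28 ± 0.28 (SE, 95% interval -0.92 to 0.36, adjusted p = 0.598 in limma). Without pool 1 it was -0.47 ± 0.17 (adjusted p = 0.0547), and without pool 1 but with the pool as a block it passed (adjusted p = 0.0468). In that last fit 43.7% of all genes passed. The 8 lateral plate markers, none of which was at 0, summed to 359, 590 and 499 on GFP-positive arrays and to 2264, 5575 and 5641 on GFP-negative arrays. Over the GFP-negative arrays this sum was lowest in pool 1, as was Lefty2, but highest in pool 3, where Lefty2 was highest in pool 2. Prrx1 (367, 346 and 284) and Gata4 (26.8, 23.8 and 23.4) were highest in pool 1, and the rest of the 8 were lowest there. The part of the lateral plate markers in the Lefty2 values was not tested.

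Foxh1, the forkhead partner of the Smads, lay between the 23.7th and 61.6th percentile of the arrays over all its probe sets. Its brightest probe set (1422213_s_at, whose suffix marks probes shared by related transcripts) had 16.3, 23.1 and 29.3 on GFP-positive arrays, against 25.7, 37.5 and 50.2 on GFP-negative arrays. It was lower in GFP-positive cells in all 3 pools, with log2 differences of -0.26, -0.34 and -0.42, and the groups overlapped. The fit gave -0.34 ± 0.19 (SE, 95% interval -0.77 to 0.09, adjusted p = 0.331 in limma). The other probe sets had -0.34 ± 0.23 (1422212_at, at 5.48 to 39.2 over the 6 arrays) and -0.05 ± 0.15 (1437779_at, at 17.1 to 25.8), and neither passed.

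Set side by side, 4 of the 7 genes (Nodal, Dand5, Cfc1 and Acvr2b) had every GFP-positive array above every GFP-negative array, as did 15.6% of all genes tested. In 0 of the 7 did every GFP-positive array lie below, as it did in 12.2% of all genes. The same 4 were higher within all 3 pools (28.4% of all genes), and 1, Foxh1, was lower within all 3 (24.9%). By probe set, 3 of the 11 tested passed as higher without the block, and 5 with it, against 1.26% and 4.93% of all probe sets. The 5 were both probe sets of Nodal and 1 each of Dand5, Cfc1 and Acvr2b. The dim probe set of Nodal and that of Dand5 were kept through GFP-positive arrays alone, so these counts do not support a share above the background. With no filter (tried once the values were known) the bright probe set of Nodal and that of Dand5 passed. The brightest probe set of Acvr2b then did not (adjusted p = 0.0715 in limma, over probe sets). With the block 4 passed, since Cfc1 did not (adjusted p = 0.0897). The share of all probe sets that passed with no filter was not counted, so these numbers have no background beside them.

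**Figure D2:**
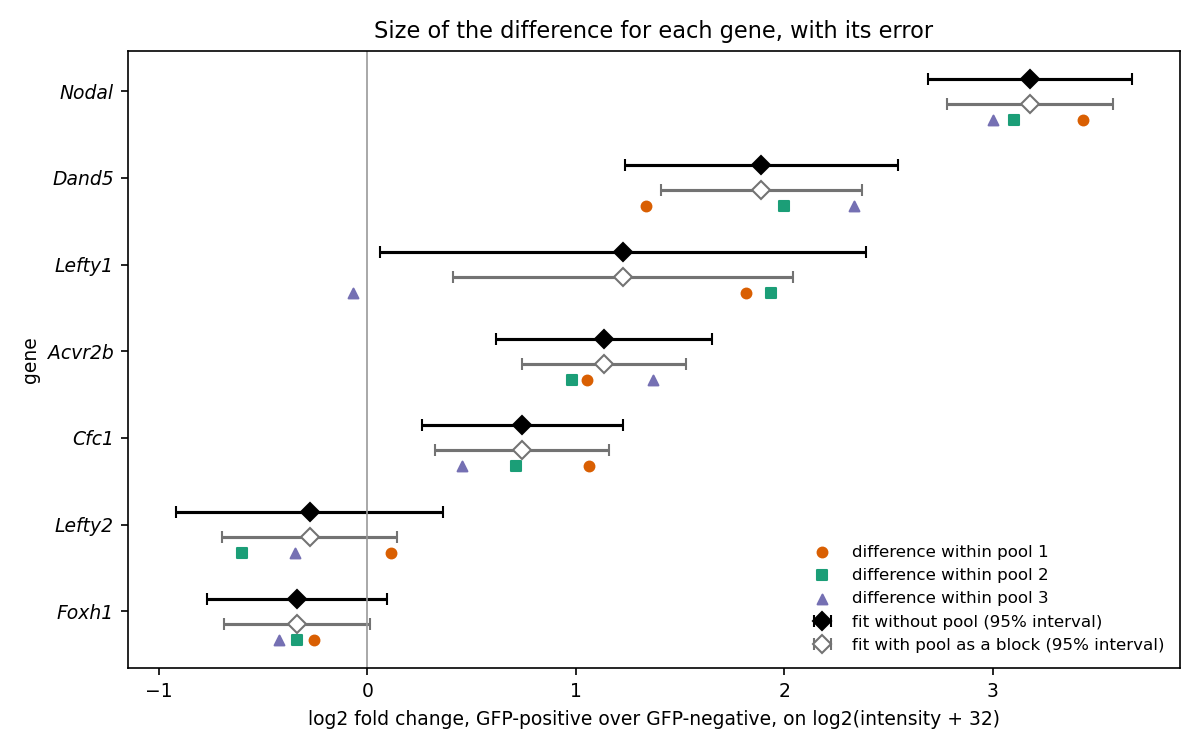
Log2 fold change of GFP-positive over GFP-negative on log2(intensity + 32) for each of the 7 genes: black diamonds are the fit without pool and open diamonds the fit with pool as a block, both with 95% intervals, and coloured points the difference within each pool. Nodal (3.18) and Dand5 (1.89) lie farthest from 0, Lefty1 has the widest interval (0.06 to 2.39), and the intervals of Lefty2 and Foxh1 include 0.

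The sort itself was visible in the markers, and 1 pool stood apart in RNA quality. All 7 tested node and notochord markers were higher in GFP-positive cells, summing to between 9385 and 13380 against 434.6 to 862.3. An 8th listed marker, T, had no named probe set. Among 8 lateral plate markers 6 were lower and 0 higher, and among 8 of endothelium and blood 3 were lower and 0 higher, with sums of 453.6 to 6063 against 13240 to 27950. Of 8 paraxial mesoderm markers 3, of 7 gut endoderm markers 4 and of 6 neural and floor plate markers 1 were higher, and 0 of them lower. Beside these counts, 2.6% of all genes were higher and 1.41% lower. Since the marker lists were chosen with earlier results of these data known, their counts describe the sort and are no test of it. Once pools were blocked, the lower ones were 6 for lateral plate and 8 for endothelium and blood, and the higher ones 7 for paraxial mesoderm, 5 for gut endoderm and 2 for neural and floor plate, where 1 was lower. With the block 8.4% of all genes were higher and 6.76% lower. In pool 1 the Gapdh control had a 3′ over 5′ ratio of 14.0 on the GFP-positive array and 15.4 on the GFP-negative one, while the other 4 arrays lay at 1.60 to 2.22, and GFP-negative array 1 correlated with GFP-positive array 1 at 0.964, above its 0.938 and 0.914 with GFP-negative arrays 2 and 3. Without pool 1, Nodal, Cfc1 and Acvr2b were higher and 0 members lower, against 19.5% and 17.9% of all genes; Dand5 was not kept by the filter there, and had 2.17 (adjusted p = 0.0026) with no filter. Without GFP-negative array 1, Nodal, Dand5 and Acvr2b were higher and 0 members lower, against 10.4% and 9.95% of all genes.

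**Figure D3:**
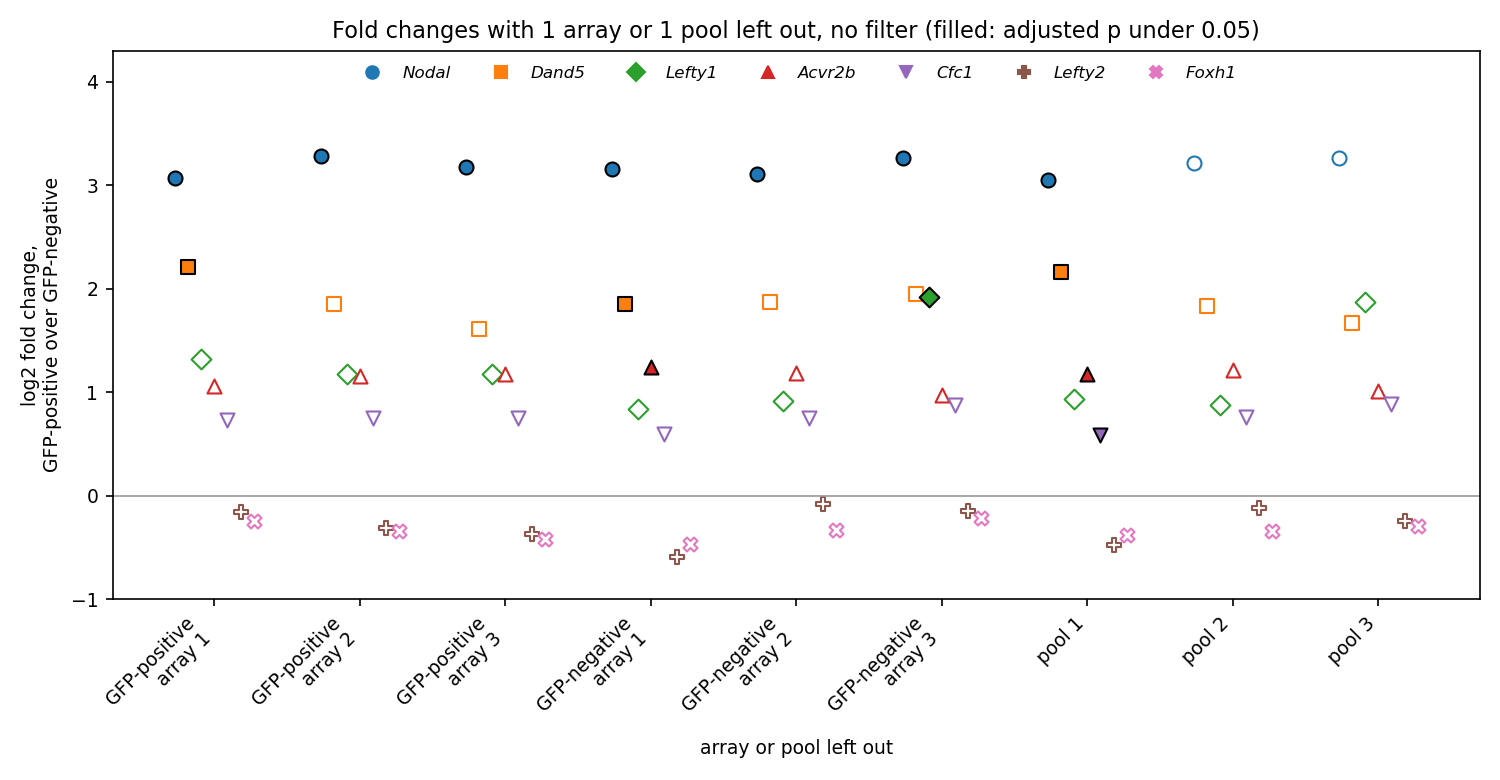
Log2 fold change of the 7 genes with 1 array or 1 pool left out and no filter on dim probe sets; filled symbols have an adjusted p under 0.05. Nodal stays between 3.05 and 3.28 and Dand5 between 1.61 and 2.21, while Lefty1 passes only without GFP-negative array 3.

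The wider pathway was described through 5 lists, of which 59 genes were no members of the set above. Of these, 52 had a named probe set and 47 were tested; 8 were higher, 0 lower and 39 did not pass. The median log2 fold change of the 47 was 0.28, beside 0.01 over all genes. The 8 were Foxa2, Shh, Bicc1, Notch1, Mixl1, Dll1, Fgf8 and Bmp7, beside 2.6% of all genes higher and 1.41% lower. Of these, Foxa2, Shh and Bicc1 are also among the node and notochord markers above, so they are not separate from the sort. Since the lists were chosen with earlier results of these data known, the count does not support a share above the background. Once pools were blocked, 14 of the 47 were higher and 2 lower, beside 8.4% and 6.76%. The count of 8 became 5 without GFP-positive array 2 or 3 or GFP-negative array 2 or 3, where 0.444% to 0.886% of all genes were higher. It was 3 without pool 3 (0.215% of all genes), 0 without pool 2 (0.0258%) and 17 without pool 1 (19.5%).

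Receptors and ligand partners other than Acvr2b did not pass. Of 4 tested, 0 were higher and 0 lower, with a median of -0.02. Acvr2a, the close relative of Acvr2b, had 88.6, 101 and 86.8 on GFP-positive arrays, against 99.2, 145 and 118 on GFP-negative arrays, and thus lay lower in all 3 pools, with a log2 fold change of -0.29 ± 0.20 (95% interval -0.75 to 0.18). Tgfbr2, a receptor for TGF-beta ligands, had 0.18 ± 0.24. The type I receptor Acvr1b, chosen after its values were seen, had -0.15 ± 0.22. The co-receptor Tdgf1, the ligand Gdf3 and the type I receptor Acvr1c were too dim to be kept, and Gdf1 was not analysed here.

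Among Smads and their partners, 1 of 15 was higher and 0 lower, with a median of 0.16. Mixl1, a homeobox factor of the streak that Nodal signalling is known to induce, had 539, 575 and 544 on GFP-positive arrays, against 148, 140 and 164 on GFP-negative arrays. It rose by 1.68 ± 0.19 (SE, adjusted p = 0.00419 in limma) with groups far apart. Smad2, Smad3 and Smad4, which carry the signal to the nucleus, had log2 fold changes of 0.16 ± 0.27, 0.53 ± 0.26 and 0.23 ± 0.20 and did not pass. Smad7, the inhibitory Smad, had 84.9, 109 and 133, against 172, 301 and 269, with no overlap. Its log2 fold change of -0.97 ± 0.26 did not pass (adjusted p = 0.077 in limma) unless the pool was a block (adjusted p = 0.0118). The other kept probe set of Smad7 had -0.13. With the block the phosphatase Ppm1a was also higher (log2 fold change 0.67, adjusted p = 0.0449). Its 7 other kept probe sets lay between -0.36 and 0.43, and 2 of them had the opposite sign.

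Of 7 convertases and extracellular modulators, 1 was higher and 0 lower. Bmp7, a BMP ligand, had 181, 166 and 166 on GFP-positive arrays, against 72.4, 65.1 and 59.9 on GFP-negative arrays, and rose by 1.05 ± 0.19 (adjusted p = 0.0225 in limma). Bmp4, the BMP ligand of the lateral plate, had 47.0, 107 and 97.0, against 123, 181 and 204, and passed with the block (log2 fold change -0.82, adjusted p = 0.0187) but not without it (adjusted p = 0.145). Cer1, a secreted antagonist related to Dand5, had 198, 209 and 512, against 98.6, 139 and 129, and also passed with the block alone (log2 fold change 1.02, adjusted p = 0.0302). Of the proteases that can cleave the Nodal precursor, Pcsk5 had 0.60 ± 0.20, Pcsk6 0.32 ± 0.16 and Furin 0.23 ± 0.46; Pcsk5 passed with the block (adjusted p = 0.0457).

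Of 8 known targets tested, 3 were higher and 0 lower: Mixl1, the forkhead factor Foxa2 and the growth factor Fgf8. Fgf8, which helps to start Nodal at the node, had 64.8, 104 and 96.2 on GFP-positive arrays, against 24.1, 18.8 and 33.4 on GFP-negative arrays. Foxa2 had 973, 638 and 578, against 30.6, 27.3 and 25.6. The targets Lhx1, Pmepa1 and Eomes had 0.25 ± 0.18, 0.30 ± 0.23 and -0.06 ± 0.20, and Eomes lay at 27.4 or less on all 6 arrays. The target Gsc was too dim to be kept.

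Upstream of Nodal, 4 of 16 genes were higher and 0 lower, with a median of 0.53. Notch1 and its ligand Dll1, which are known to switch on Nodal at the node, had 2397, 1736 and 1940 for Notch1 on GFP-positive arrays, against 594, 591 and 451 on GFP-negative arrays. Dll1 had 1382, 1832 and 1937, against 789, 865 and 665. Rbpj, the DNA-binding factor of the same pathway, lay the other way, with 1258, 777 and 940, against 1464, 1585 and 1628. Its log2 fold change of -0.66 ± 0.22 did not pass (adjusted p = 0.136, or 0.0521 with the block), and both its other probe sets had the same sign. Bicc1, an RNA-binding protein needed for left-right asymmetry, had 1178, 765 and 1025, against 66.3, 50.0 and 41.4. The 4th gene was the secreted signal Shh. Smo, the hedgehog transducer, had 1.01 ± 0.23 and an adjusted p of 0.0504, and passed with the block (0.0103), as did Shroom3 (0.0283) and Tbx6 (0.0435). The probe set used for Shroom3 had a log2 fold change of 0.81, while its 3 other kept probe sets had -0.21, 0.33 and 0.23. The cilia factor Foxj1 and the dynein Dnah11 had 0.46 ± 0.19 and 0.50 ± 0.24 and did not pass.

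**Figure D4:**
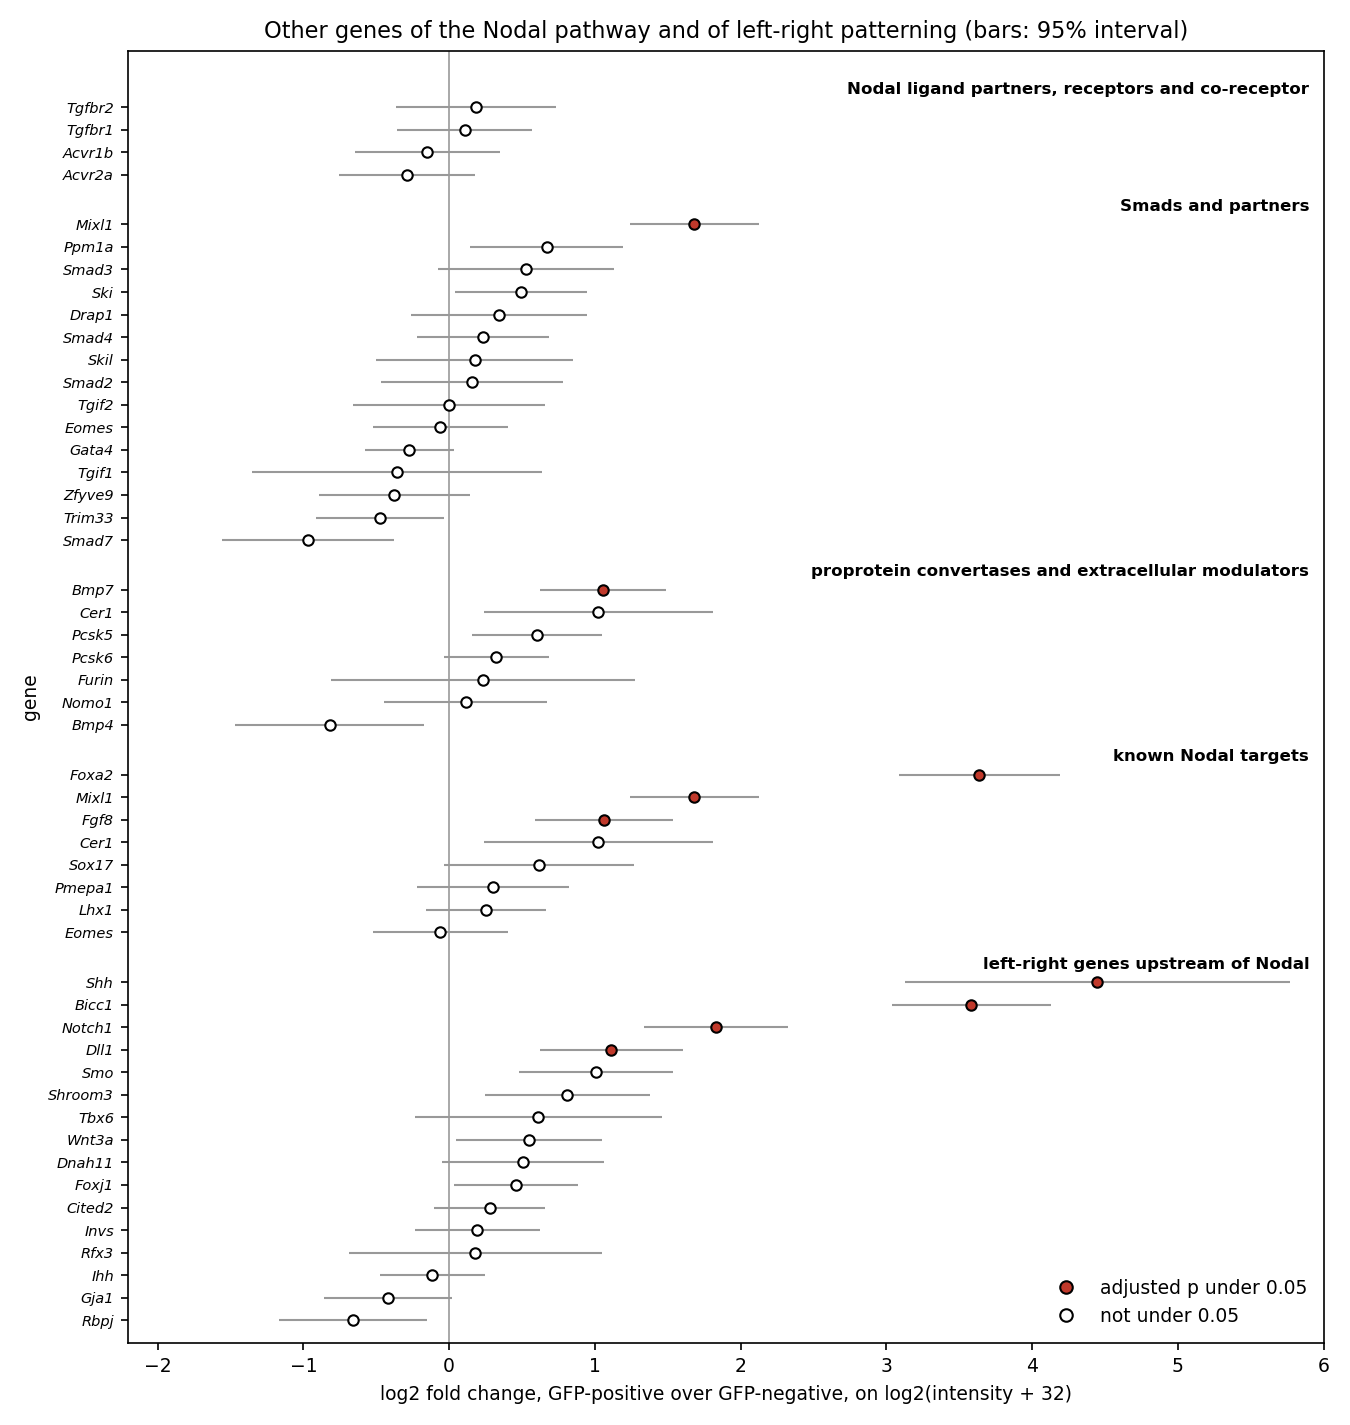
Log2 fold change of GFP-positive over GFP-negative with 95% intervals for the tested genes of the 5 lists around the Nodal pathway; filled circles have an adjusted p under 0.05, and Mixl1, Cer1 and Eomes stand in 2 lists each. All 8 filled genes lie to the right of 0, from 1.05 for Bmp7 to 4.45 for Shh, and Smad7 (-0.97) lies farthest to the left.

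The genes whose profile over the 6 arrays was most like those of Nodal, Dand5 and Lefty2 were different for each. The measure was Pearson's r of log2(intensity + 32) over 6 arrays among the 4477 genes that spanned at least 1, and it is given as a description, since arrays of a group share the sort and arrays of a pool share the embryos. For Nodal the 5 nearest were H1f2 (r = 0.999), Smim22 (0.998), Htra1 (0.998), Cthrc1 (0.998) and Vtn (0.997), chosen by profile over the same arrays, so that their own differences between the groups are no separate result. The serine protease gene Htra1 had 456, 416 and 455 on GFP-positive arrays, against 45.2, 41.5 and 46.7 on GFP-negative arrays. For Dand5 they were Fgfr1 (0.998), Trap1a (0.996), Apela (0.993), Ezr (0.990) and Asl (0.989). All 5 had their lowest GFP-positive value in pool 1, as Dand5 did, which follows from the choice by profile. The FGF receptor gene Fgfr1 had 187, 276 and 339, against 100, 109 and 109. For Lefty2 they were Hunk (0.995), Ikbkb (0.995), Zdhhc7 (0.994), Aurkb (0.994) and Tmem248 (0.992). In all 5 the dimmest GFP-positive and the dimmest GFP-negative array were those of pool 1, as for Lefty2 itself. Since the 5 were chosen for this likeness, that is no separate result. Pool 1 had the high 3′ over 5′ ratio, and its part in these profiles was not tested.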

How the data were processed

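The 6 arrays were of 1 colour, hybridized with biotin-labelled RNA amplified over both cycles of an Affymetrix kit, per the labels' protocols. The deposited values are intensities on a linear scale made by the authors with GCOS 1.4, per the submitters' processing notes; each array's mean, trimmed by 2% at each end, was 150. No detection calls were used, so a dim value can be background, and precision is limited by there being 6 arrays. Of 45101 probe sets, 64 were controls, 34945 had 1 gene symbol, 932 several and 9160 none here; all 7 members matched the RefSeq table (GRCm38.p6) by gene identifier. 0 per-sample columns were left unused.

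Intensities were taken to log2(value + 32), which understates changes of dim genes. Probe sets at or above their array's 40th percentile on 3 or more of 6 arrays (27821) entered limma 3.58.1 in R 4.3.3 (lmFit, then eBayes with trended variance) with group as the only term. Each of 12628 genes was represented by its brightest kept probe set, with Benjamini-Hochberg adjustment over all genes (over all probe sets where a probe set is named). Errors are SE for fold changes and SD for intensities. Fits were tested on simulated data. Members and lists were chosen with earlier results of these data known. Named by rule were all members, every passing gene of a list (at most 6, else the 2 largest), and the 5 nearest profiles of 3 members. Further list genes that did not pass without the block, such as the Smads, Rbpj and Foxj1, and single markers were named outside this rule.

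Same-numbered arrays came from 1 pool of embryos, per the labels, so numbers pair the samples; their deviations from group means correlated at 0.542, 0.286 and 0.436. Alternatives were the offset, normalization, filter, variance trend, pool as a block, averaging of probe sets, and each array or pool left out.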

Additional observations from a re-analysis of the deposited data

How the results depend on the processing

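Without the block, offsets of 16 and 64, quantile normalization, no filter, a filter at the 60th percentile, no variance trend and averaged probe sets left Nodal, Dand5 and Acvr2b higher; averaging gave Nodal 2.00, since it brings in the dim probe set, and made Cfc1 pass (0.74, adjusted p = 0.0495), and the stricter filter left Lefty2 and Foxh1 untested. With the pool as a replicate block Cfc1 passed (0.74, adjusted p = 0.0321), 14 other pathway genes were higher and 2 lower, and over all genes 1061 were higher and 854 lower, against 328 and 178; no other member's call changed. With no filter 92 genes were lower, against 178. No member's fold change turned its sign under any alternative run. The cause of these changes was not tested.

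Calls depended on single arrays and pools. With 1 array or pool left out (pool 1 also with the block, and each also with no filter, the last added after seeing the data), log2 fold changes lay between 3.05 and 3.28 for Nodal, 1.61 and 2.21 for Dand5, 0.97 and 1.25 for Acvr2b, 0.58 and 0.89 for Cfc1, 0.84 and 1.92 for Lefty1, and -0.60 and -0.084 for Lefty2; those of Foxh1 did not pass in any. Nodal missed the threshold without pool 2 (3.21, adjusted p = 0.0527) and, with no filter, also without pool 3 (3.27). Dand5 passed in 3 of 9 such fits with no filter, and in 2 of the 3 where the filter kept it. Lefty1 passed without GFP-negative array 3 and, with the block, without pool 1 (0.93, adjusted p = 0.0039), and Cfc1 without pool 1. With the block and without pool 1, 43.7% of all genes passed. Between 0 (without pool 2) and 4 members were higher, and between 0 and 1 lower (Lefty2, without pool 1 and with the block). Other pathway genes numbered 0 to 18 higher and 0 to 7 lower, and all genes 3 to 2637 higher and 0 to 2505 lower. Values near background limit what Lefty2, Foxh1 and the GFP-negative levels of Dand5 can show.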

Other observations

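Lefty1 had a pattern over the arrays that few other probe sets had. Of 11988 probe sets at or above the 70th percentile on all 3 GFP-positive arrays, 1 was also at or above it on GFP-negative array 3 while under the 40th percentile on GFP-negative arrays 1 and 2: that of Lefty1. The same pattern with GFP-negative array 1 as the bright one was found in 3 (Cbr3, Dusp5 and Pou4f1), and with GFP-negative array 2 in 0. These limits were set after the values of Lefty1 were seen.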
